A study of Homo sapiens with 3 samples.

Results

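The loci occupied by ZMYND11 were compared between parental and ETS1-knockout DU145 cells, using every region of both ZMYND11 lists. The parental list held 536 regions and the knockout list 15676, together 16212 of the 17232 regions in the series. Each list came from 1 chromatin immunoprecipitation and sequencing (ChIP-seq) library, so what follows compares 2 lists, not 2 conditions, and no value has a replicate error. DU145 is an established human prostate cancer cell line grown from a metastasis in the brain. Parental cells are labelled WT, the knockout cells differ from them by the loss of ETS1 as far as the labels say, and the third library of the series is an ETS2 ChIP from the knockout cells. How the knockout was made, and whether its cells are 1 clone, is not given in the sources used here. The labels give both the same culture medium, with puromycin where cells were under selection. The regions hold no score, so a region's line number, called its place here, is the only rank, and the sources do not explain the order.

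ZMYND11, also called BS69, is a chromatin reader that binds histone H3.3 trimethylated at lysine 36, a mark laid down over the bodies of transcribed genes, and it is known as a transcriptional co-repressor that restrains elongating RNA polymerase II. ETS1 and ETS2 are closely related transcription factors downstream of the RAS and ERK pathway that bind DNA around a GGAA core, often in promoters and together with AP-1 (FOS and JUN) proteins. ZMYND11 has been studied as a partner of ETS proteins, and the comparison asks where it is found when ETS1 is present and when it is absent.

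Regions were described by gene loci whose hg19 positions had been written down by hand from general knowledge, since no hg19 annotation was at hand. Of 456 such loci, 356 had the chromosome and the length (within 500 bp and 10%) of the same gene in a RefSeq table of another build, and 58 of those had been chosen with the position of a region known. The remaining 298 were counted. Among 123 neighbouring counted loci at most 2 Mb apart, 112 had a spacing within 500 bp of that in the RefSeq table. Genes outside the hand-written lists were not examined, so a region near a listed gene can also lie in an unlisted neighbour.

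The sequences shown first are from promoters where both lists had a region at the gene start. A region at the start reached within 1 kb of it and need not cover the printed bases. At DDX41 the parental midpoint was at -526 bp from the start of the locus used, and that region did not reach them. Those shown were picked by hand and mostly carry the motif marked below, so they do not give its frequency. Among 17 such genes with a promoter entry, 7 held it in at least 1 promoter. Each is the stretch of 150 bases before the start of the gene, 5′ to 3′ on the gene's strand, from RefSeq on build GRCh38.p14, which is not the build of the regions. Capitals mark the motif CCGGAA, a longer form of the ETS core GGAA, or, on the other strand, TTCCGG. Other GGAA cores in these letters are not marked. MED15 encodes a subunit of the Mediator coactivator (chr22:20507460-20507609, plus strand), RACK1 a ribosome-bound scaffold protein (chr5:181243907-181244056, minus strand), DDX41 an RNA helicase (chr5:177516962-177517111, minus strand) and GTF3C5 a subunit of the RNA polymerase III factor TFIIIC (chr9:133030847-133030996, plus strand). PRCC (chr1:156767385-156767534, plus strand), a gene fused to TFE3 in some kidney cancers, is shown as a shared promoter without CCGGAA or TTCCGG in these letters. It does hold the shorter GGAA.
MED15: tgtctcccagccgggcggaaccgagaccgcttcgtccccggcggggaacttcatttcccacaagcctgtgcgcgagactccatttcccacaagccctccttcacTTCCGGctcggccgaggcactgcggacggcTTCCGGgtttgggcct
RACK1: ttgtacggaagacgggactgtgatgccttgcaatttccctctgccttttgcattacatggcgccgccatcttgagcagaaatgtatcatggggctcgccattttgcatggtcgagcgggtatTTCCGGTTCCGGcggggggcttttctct
DDX41: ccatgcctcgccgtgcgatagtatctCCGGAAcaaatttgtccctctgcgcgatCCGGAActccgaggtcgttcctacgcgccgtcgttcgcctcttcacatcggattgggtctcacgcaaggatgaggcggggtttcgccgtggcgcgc
GTF3C5: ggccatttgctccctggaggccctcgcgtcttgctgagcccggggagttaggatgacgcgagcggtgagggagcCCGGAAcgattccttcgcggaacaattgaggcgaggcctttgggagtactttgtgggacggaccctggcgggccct
PRCC: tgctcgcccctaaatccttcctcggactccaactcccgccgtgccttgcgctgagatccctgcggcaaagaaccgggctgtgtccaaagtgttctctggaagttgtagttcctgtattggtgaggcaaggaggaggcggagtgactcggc

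The parental list opened mainly inside gene bodies, among them those of actin, glycolysis and ribosomal protein genes. Of its first 20 regions, 13 lay in the body of a listed gene, 4 within 1 kb of a gene start, 3 at no listed gene and none past a gene end. Place 2 was ACTB, which encodes beta-actin (chr7:5567950-5568449, with its midpoint 2033 bp from the start and 1420 bp before the end). Place 3 was ACTG1, gamma-actin (chr17:79478772-79479271, 871 bp from the start), and place 4 was GAPDH of glycolysis (chr12:6646759-6647249, 533 bp before the end). PLEC (place 5) encodes the cytolinker plectin, EPHA2 (place 6, chr1:16466807-16467302) an ephrin receptor kinase, and ZFP36L1 (place 9) a protein that promotes mRNA decay. Further on stood the ribosomal protein genes RPL8 (place 8) and RPL3 (place 12), the matricellular gene CCN1 (place 14), the filamin gene FLNA (place 17) and the elongation factor gene EEF2 (place 19). The places also included the small nucleolar RNA gene SNORD3A (place 13), which encodes U3. The genes TXNRD2 (11), LONP1 (15), TIAM1 (16), PSMD9 (18) and DOP1B (20) held the other parental regions among the first 20, all in gene bodies. EPHA2, ZFP36L1, PLEC, TIAM1, SNORD3A, TXNRD2, LONP1, PSMD9 and DOP1B were looked up after their region positions had been seen and enter no count of loci.

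The knockout list opened at small RNA genes and past the ends of genes. Each region was given 1 zone, with a gene start taken before a gene body and a body before a gene end. By that order 4 of the first 20 regions lay at a gene start, 3 in a gene body, 6 past the end of a listed gene and 7 at no listed gene. The region at place 10, counted in the body of P2RY11, also lay 1100 bp past the end of EIF3G, a translation initiation factor gene. Place 1 covered RNU2-2P, a U2 small nuclear RNA gene (chr11:62608870-62609370). Places 9 and 14 covered SNORD118, which encodes the U8 small nucleolar RNA, and RNU5A-1, a gene for the U5 RNA of the spliceosome. Place 3 (chr17:57920396-57920897) lay 1030 bp past the end of VMP1, an autophagy gene, and 1948 bp past the hairpin of MIR21, the growth-associated microRNA embedded there. Place 13 (chr11:65274901-65275402) lay 1211 bp past the end of the long noncoding RNA gene MALAT1. The other protein-coding genes with one of the 6 regions past their end were RPL12 (place 6, 1535 bp past the end), FOSL1, which encodes the AP-1 protein FRA1 (place 7, 517 bp), TNFRSF12A, the TWEAK receptor gene (place 18, 1154 bp), and RPL23A (place 20, 1043 bp). The remaining listed loci were SCFD1, a vesicle transport gene (place 5, at the start), ARHGDIA (place 8), P2RY11 with EIF3G (place 10) and LZTR1 (place 15). RNU2-2P, SCFD1, ARHGDIA, SNORD118, P2RY11, EIF3G, LZTR1 and TNFRSF12A were looked up with their region positions in view and enter no count of loci. None of the gene loci among the first 20 of one list was among the first 20 of the other.

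The mature microRNA of the MIR21 locus is shown because its host locus held the third region of the knockout list and no parental region. Its sequence is from RefSeq, with the seed (bases 2 to 8) in capitals, and the lists say nothing of its level.
hsa-miR-21-5p: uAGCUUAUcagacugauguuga

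The lists had few regions in common. An overlap of at least 1 bp with a knockout region was found for 56 parental regions, which is 10.4% of the parental list (95% Wilson interval 8.13 to 13.3%, counting error only). These 56 regions made up 0.357% of the knockout list. Shared stretches had a median length of 399 bp, and the median distance between the paired midpoints was 84 bp. When the knockout list was cut to its first 536 regions, 9 shared regions were left. Of the first 20 parental regions 5 were in both lists, at PLEC, SNORD3A, FLNA and 2 places at no listed gene.

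Shared regions were mainly at gene starts and inside genes. By the loci looked up within 3 kb of them, 22 of the 56 lay at a gene start, 18 in a gene body, 4 past a gene end and 12 at no listed gene. The 12 included parental place 318, with its midpoint at -4706 bp from the start of FOXA1, outside that window. Of the 44 at a listed gene, 43 lay in the same zone in both lists, and at PFKP the zones differed. Besides the promoters printed above, the starts included UCKL1, a uridine kinase gene (parental place 260, knockout place 93), ATP5F1B, which encodes the beta subunit of the ATP synthase (92 and 2429), and KRT5, the basal keratin gene (106 and 7342). EGR1, an immediate early gene induced through ERK, had a parental region 1088 bp and a knockout region 1157 bp from its start, at places 122 and 10426. MED15 stood at place 177 of 536 in the parental list and 181 of 15676 in the knockout list. Its regions had their midpoints 67 and 10 bp from the gene start. PRCC stood at place 134 of the parental and 36 of the knockout list, RACK1 at 259 and 731, DDX41 at 253 and 2975, and GTF3C5 at 58 and 3625. RNU1-1, a gene for the U1 RNA of the spliceosome, had places 88 and 122, and SNORD3A had places 13 and 30. Copies of the U1 and U3 genes are near-identical, so which copy these reads came from is uncertain. Shared regions inside genes included PLEC (5 and 752), EFHD2, a calcium-binding actin regulator gene (52 and 4800), the amino acid transporter gene SLC7A5 (55 and 2397), FLNA (17 and 9765) and the laminin gene LAMA5 (392 and 10260). The shared regions past an end were at MCL1, the BCL2 family survival gene (436 and 74, 2553 and 2644 bp past the end), CKB, R3HDM4 and GNA13.

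The motif CCGGAA, which holds the ETS core GGAA, was found in some of the shared promoters. The shorter core alone was not searched, so a promoter without the motif can still hold it. Of 21 genes with a region of both lists at the start, 17 had entries in the RefSeq promoter table, which gives 250 bases before and 50 after the start. In it, 7 of their 21 promoters held CCGGAA on either strand (33.3%), against 6057 of all 35116 promoters (17.2%). These genes were looked up at the shared regions, so the share is a description of them, and a match in these letters is no evidence of binding.

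Of the 298 counted loci, 28 held a parental region within 1 kb of the gene (9.4%), and 189 held a knockout region (63.4%). One of the first 536 knockout regions lay within 1 kb of 62 of them (20.8%). At equal list length and with this flank, the knockout list thus still covered more of these loci. The flank takes in regions past gene ends. In gene bodies alone 27 loci held a parental region. The equal-length knockout count was not made there, so the order is shown only for the 1 kb flank. Both lists had a region at 20 loci. The genes listed as typical of other tissues, such as those for globins, insulin and cardiac myosins, held 0 knockout regions at 43 loci and 1 parental region, in the body of APOB, the liver and gut lipoprotein gene (place 381). Some members of the lists written after the region lists were opened (ribosomal, expressed and other-tissue genes) enter these totals, and none of them was chosen for a region at its position.

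Parental regions were found at genes of the cytoskeleton, glycolysis and translation, read against 9.4% of all counted loci. With the genes of other tissues left out, the base was 27 of 255 loci. In the actin cytoskeleton list, which also holds tubulin, keratin and lamin genes, 9 of 28 loci held one (32.1%). Among them were ACTB, ACTG1, FLNA, KRT8, KRT18, LMNA, TUBA1B and TUBB, which encode actins, a filamin, keratins, lamin A and tubulins. In glycolysis 3 of 10 did, namely GAPDH, ENO1 (enolase, place 37) and PFKP (platelet phosphofructokinase, place 139). Among the genes for ribosomal proteins and translation factors fixed first, 4 of 18 did, namely EEF2, RPL3, RPL8 and RPLP0, and of the ribosomal protein genes added later 3 of 33 did. Of the ERK-responsive genes 3 of 20 held a parental region, at EGR1, MCL1 and PHLDA1, a gene of apoptosis control. Of the long noncoding RNA and microRNA host loci 1 of 11 did, NEAT1, the RNA that builds paraspeckles (place 145, 408 bp from its start). The parental list had no region at the 8 FOS and JUN loci, the 8 histone loci of 6p22, the 7 heat shock and chaperone loci or the 17 counted structural RNA loci. SNORD3A and RNU1-1, which did have one, are structural RNA loci outside this count. Other listed genes with a parental region were left out because their region positions were known. Among them were EPHA2 and ZFP36L1 of the ERK-responsive list and PLEC of the actin cytoskeleton list. The shares by list leave such genes out.

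Knockout regions were spread over nearly every list of expressed genes, read against 63.4% of all counted loci. With the genes of other tissues left out, which held none, the base was 189 of 255 loci. Several lists lay near that second share. All 8 histone loci of 6p22 held one, and 5 of them one of the first 536, at H1-2, H1-4, H2AC4, H3C2 and H4C2. These short genes lie close together, and some share a region: place 1311 served H3C1 and H4C1, and place 331 served H3C2 and H2AC4. Of the structural RNA loci 13 of 17 held one, including RNU12 (place 33), RNU11 (101), RNU5B-1 (108), RNU4ATAC (216) and RPPH1 of ribonuclease P (286), and 8 held one of the first 536. The actin cytoskeleton list had 23 of 28, glycolysis 8 of 10, adhesion and migration 8 of 10, ribosomal proteins and translation 13 of 18, and heat shock and chaperones 5 of 7. FOS and JUN had 5 of 8: JUN, JUND and MAFF with 2 regions each and FOSL1 and JUNB with 1 each, while FOS, FOSB and ATF3 had none. At ETS2 itself 4 knockout regions were listed, 3 in the body and 1 past the end, and no parental region. ETS1 had no region of either list within 1 kb, which does not check the knockout. Genes with many knockout regions were long ones: BCL2L1, the BCL-XL gene, held 13 in 59.5 kb, and ACTN4 (alpha-actinin), ANXA2 (annexin A2) and VMP1 held 9 each.

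**Figure D1:**
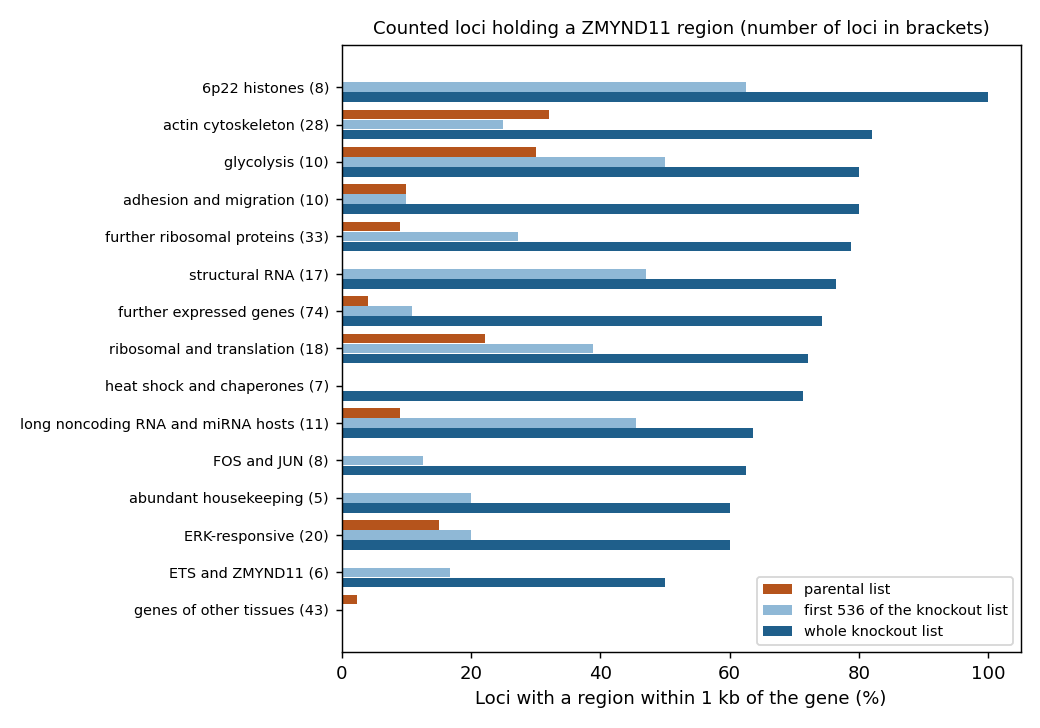
Share of counted loci with a ZMYND11 region within 1 kb of the gene (percent, horizontal axis) for each gene list (vertical axis, number of loci in brackets), in the parental list, the first 536 regions of the knockout list and the whole knockout list. The parental bars reach 32.1% in the actin cytoskeleton list, and the whole knockout list reaches 100% at the 6p22 histones and 0% at genes of other tissues.

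Over the whole lists, the gene start did not set them apart by more than the counting error. Of 29 parental regions within 1 kb of a counted gene, 8 lay at its start, meaning that they reached within 1 kb of it (27.6%, Wilson interval 14.7 to 45.7%). Of 397 knockout regions, 115 did (29%, 24.7 to 33.6%). The parental interval is wide because few parental regions lay in counted loci.

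The lists parted more in the gene body and past its end, here with the knockout list cut to its first 536 regions and with flanks of 5 kb. This was noticed in the data, so the values describe these 2 lists and are no test. Within 5 kb of the counted genes there were 33 pairs of a parental region and a gene, of which 20 lay in the body (60.6%, Wilson interval 43.7 to 75.3%), 9 at the start, 2 upstream and 2 past the end (6.06%, 1.68 to 19.6%). The first 536 knockout regions gave 98 pairs, of which 72 lay past the end (73.5%, 64 to 81.2%), 16 at the start, 6 in the body (6.12%, 2.84 to 12.7%) and 4 upstream. Pairs are not independent, since some regions lie near several genes, and the intervals cover counting error only. The early knockout regions past an end had a median distance of 1158 bp from it, with the middle 50% between 762 and 1872 bp. Per length, densities were taken in 200 genes of at least 3 kb with those of other tissues left out. Parental regions were listed at 17.5 per Mb around the start (7 regions), 3.54 per Mb in the body (19 regions) and 1 per Mb past the end (1 region). For the first 536 knockout regions these densities were 10, 0.932 and 54 per Mb, from 4, 5 and 54 regions. Start densities are somewhat too high, since regions reaching into the 1 kb window were counted but only the window's length was used.

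**Figure D2:**
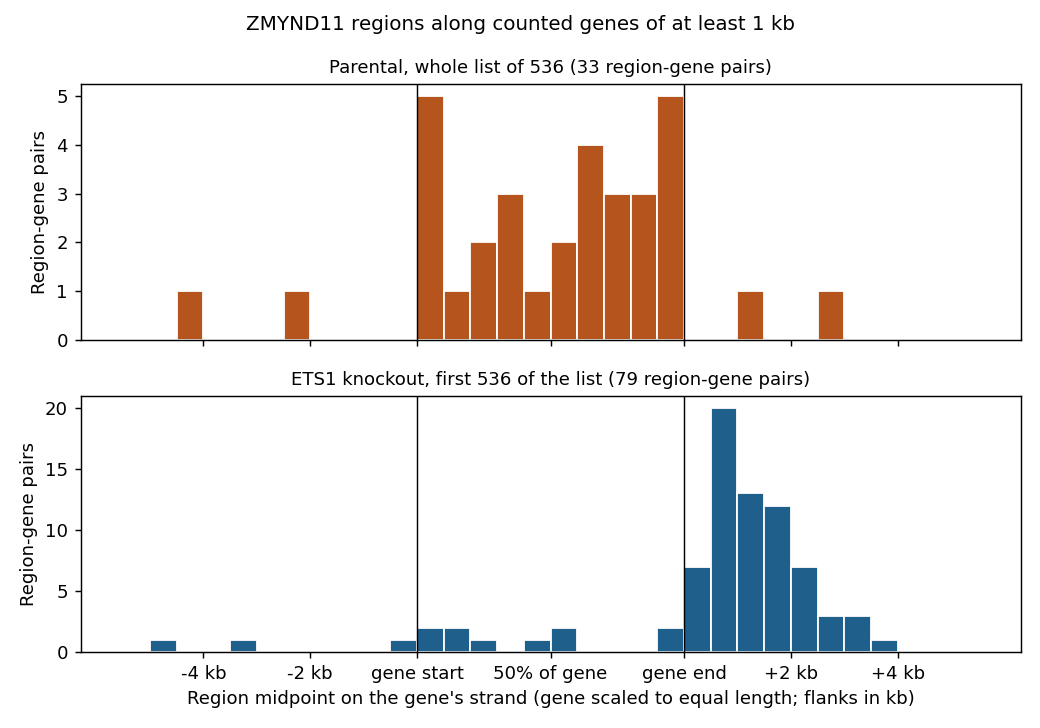
Number of region-gene pairs (vertical axes, on different scales) by the position of the region midpoint on the gene's strand, for counted genes of at least 1 kb, each scaled to equal length, with flanks of 5 kb. Parental regions (upper panel) lie between start and end except for 2 upstream and 2 past the end, whereas the first 536 knockout regions (lower panel) gather within about 2 kb past the end.

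The first-listed regions of the lists were compared gene by gene. Of the 29 counted genes with a parental region within 5 kb, 28 also had a knockout region within 5 kb. At 4 of the 28 (EGR1, FLNA, MCL1 and PFKP) a parental and a knockout region overlapped. The first parental region lay at the start or in the body of 25 of the 28 and past the end of 1, and the first knockout region lay past the end of 23. In 27 of 28 genes the first knockout region was further downstream than the first parental one, and the first regions were a median of 3164 bp apart. The exception was KRT8, which lies head to head with KRT18 and shares its regions.

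At ACTB the knockout region (place 78, chr7:5564997-5565498) lay 1532 bp past the end, against 1420 bp before it for the parental one. At GAPDH the knockout region (place 119, chr12:6647849-6648348) lay 561 bp past the end, and the parental one 533 bp before it. RPL3 had its parental region 1812 bp before the end and its knockout region (place 80) 1560 bp past it. At EEF2 the parental region was 1813 bp before the end, and the knockout regions were 3289 bp (place 98) and 576 bp (place 456) past it. ENO1 gave 5431 bp before and 1801 bp past the end (place 110), and RPLP0, the stalk protein gene of the large ribosomal subunit, 2598 bp before and 602 bp past it (place 136). CCN1, a secreted protein gene of adhesion and migration, had its parental region 518 bp from the start and its knockout region 442 bp past the end (place 143). At these genes no region was common to both lists. ACTG1, PHLDA1, NEAT1 and EGR1 did not follow the pattern: their first knockout regions were inside the gene. At FLNA and PFKP the first knockout regions, at places 378 and 1260, lay past the end, while later ones, at places 9765 and 2731, overlapped the parental region. MCL1 had parental regions on both sides of its end, 2500 bp before it (place 144) and 2553 bp past it (place 436), and the second of these overlapped the knockout region at place 74.

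**Figure D3:**
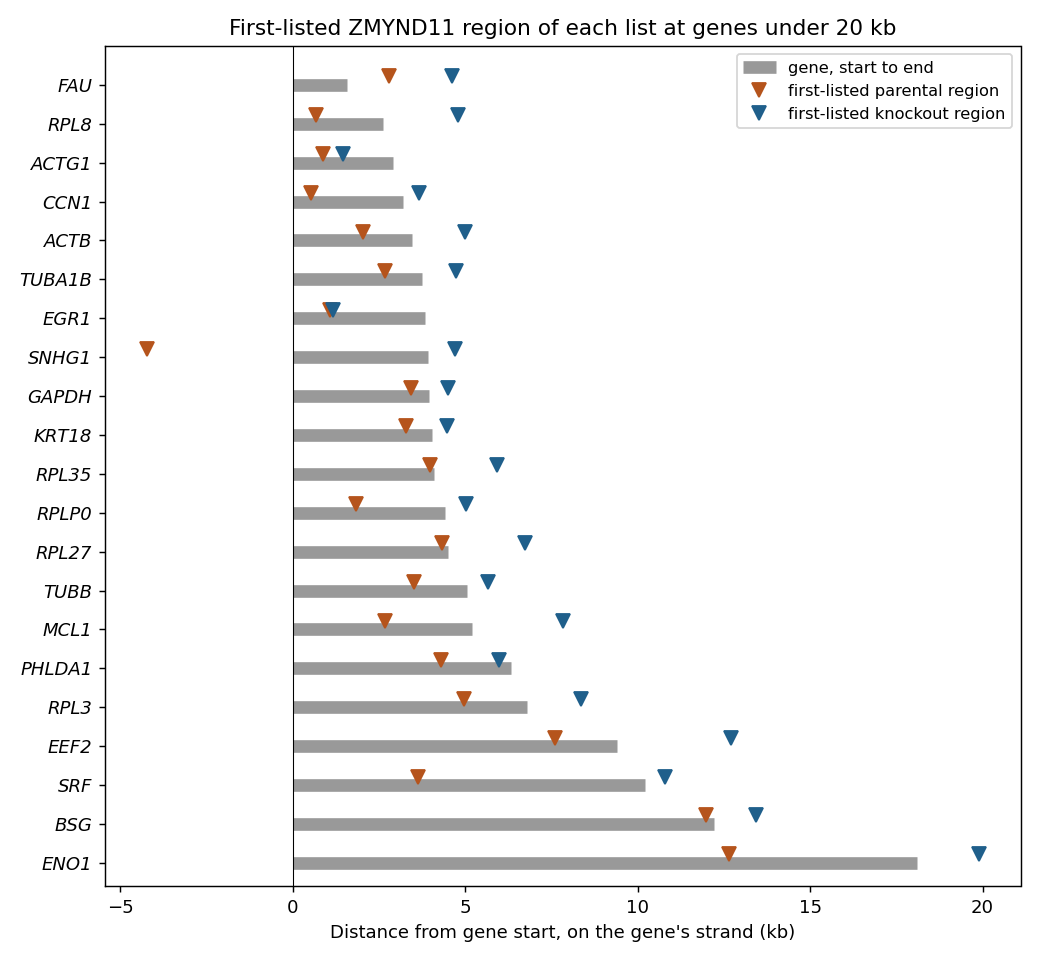
The first-listed ZMYND11 region of each list at the 21 counted genes under 20 kb that had regions of both lists within 5 kb, by distance of the region midpoint from the gene start in kb. The first knockout region lies past the end of the gene in 18 of the 21 genes and the first parental region in 1, FAU.

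One of the first 536 knockout regions lay past the end of 71 of the 298 counted genes (23.8%), a share lowered by the 43 genes of other tissues. Read against that share, they were at 7 of 10 glycolysis genes, 10 of 18 genes for ribosomal proteins and translation factors, 17 of 33 further ribosomal protein genes, 11 of 28 genes of the actin cytoskeleton list and 6 of 11 long noncoding RNA and microRNA host loci, of which VMP1 and MIR21 share 1 region. They were also at 4 of 8 histone genes of 6p22, all but H1-4 through a region at the start of a neighbouring counted histone gene. Place 314, past H4C1 and H3C2, lay at the start of H4C2, and place 331, past H2AC4, at the start of H3C2. The other lists had 8 of 74 further expressed genes, 3 of 20 ERK-responsive genes and 1 of 10 genes of adhesion and migration. They also had 1 of 8 FOS and JUN genes, 1 of 7 heat shock and chaperone genes and 1 of 5 abundant housekeeping genes. Examples were PKM (pyruvate kinase, 852 bp past the end), TPI1 (triosephosphate isomerase, 693 bp), PFN1 (profilin, 193 bp), VIM (vimentin, 877 bp), EEF1A1 (an elongation factor, 745 bp), CCND1 (cyclin D1, 171 bp) and ZFAS1 (a small nucleolar RNA host, 1259 bp). Of the 43 genes of other tissues 1 had such a region, 4316 bp past HBA1, an alpha-globin gene.

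The position on the gene differed along the knockout list. Past the end lay 108 of 159 pairs in the first of 10 equal parts of the list (67.9%), 21 of 61 in the second (34.4%) and between 2.86 and 23.5% in each of the later parts. Gene bodies took 9.43% of pairs in the first part and 55% in the last. In the parental list, 1 of 20 pairs in the first 268 regions and 1 of 13 in the last 268 lay past the end. Over the whole knockout list 217 of 566 pairs lay in gene bodies (38.3%), 183 past the end (32.3%), 116 at the start (20.5%) and 50 upstream (8.83%).

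**Figure D4:**
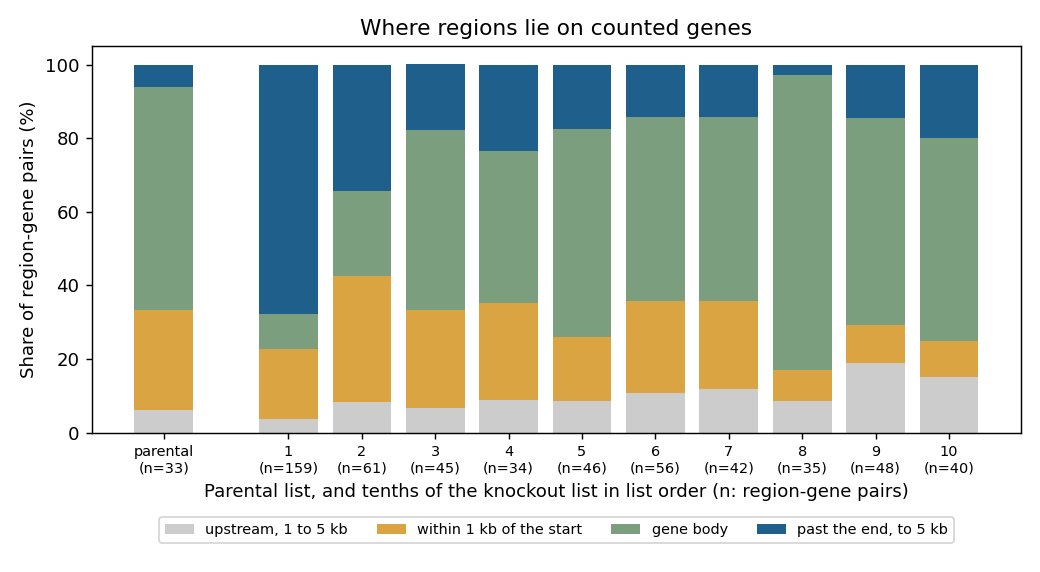
Share of region-gene pairs (percent) that lie upstream, within 1 kb of the start, in the gene body or past the end of a counted gene, for the parental list and for each of 10 equal parts of the knockout list in list order, with the number of pairs under each bar. The share past the end is 67.9% in the first part of the knockout list and 6.06% in the parental list.

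The ETS2 list from the same knockout cells, 1 library of another antibody, had 74 of its 120 pairs past gene ends (61.7%). An ETS2 region was overlapped by 279 of the first 536 knockout ZMYND11 regions and by 582 of all 15676. Among the first 536, those 279 had 38 of 54 pairs past the end (70.4%), while the 257 that overlapped none had 34 of 44 (77.3%). Over the whole knockout list the order was the other way round, with 44 of 65 pairs past the end for regions overlapping ETS2 (67.7%) and 139 of 501 for those overlapping none (27.7%). Overlap with ETS2 and an early place went together, so the whole-list shares do not separate them. Antibody, cell line, depth and peak calling cannot be told apart here: both lists from knockout cells held regions past gene ends, and no input or replicate of either cell line was analysed here.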

How the data were processed

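The authors deposited 3 lists of regions, as chromosome, start and end positions (unit: other), without header, score, count or p-value. Per the submitters' processing notes, Bowtie2 2.0.6 and build hg19 were used. The sources used here do not give the peak caller, threshold, control or depth, nor whether starts count from 0 or 1. Depth, and with it precision per region, is unknown. Regions were 228 to 501 bp wide.

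Samples were grouped by title, 1 library a group. Regions overlapping by at least 1 bp were shared. Hand-written hg19 loci were checked by chromosome and length against RefSeq (GRCh38.p14), with no conversion of coordinates. A region was at the start if it reached within 1 kb of it, and otherwise upstream, in the body or past the end by its midpoint. For the first 20 regions of each list and the shared regions, listed genes were sought within 3 kb. No test was possible with 1 library a group, and shares carry 95% Wilson intervals. Members, gene lists and loci were chosen with earlier results of these data known, and 255 loci were written after the region lists had been seen. Named are the first 20 regions of each list, shared regions, and genes of the fixed lists with a parental, a shared or the most knockout regions. Genes named past ends, with regions in many places, or at places looked up afterwards, were chosen after their positions were seen. Scripts in Python 3.11.15 (pandas 2.3.3, scipy 1.17.1, matplotlib 3.10.9) were tested on simulated data. Alternatives on overlap, flanks, start windows and list length were tried.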

Additional observations from a re-analysis of the deposited data

How the results depend on the processing

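No paired analysis was possible because each group had 1 library and no result came from a test, and for the same reason no replicate could be left out. Of the alternatives tried for the 9 results listed here, 26 values moved little and 16 moved. The 56 shared regions fell to 22 with the first 50% of each list and to 9 with the knockout list at the length of the parental list, counted from either list. Loci with a parental region numbered 71 of 356, and loci with a region in both lists 62, when the loci chosen with a region position known were included. Loci with a knockout region numbered 62 at the length of the parental list. Loci with both numbered 13 in gene bodies alone, 12 with the first 50% of each list and 10 at the length of the parental list. The share at gene starts was 13.8% of parental and 23.4% of knockout regions within 500 bp of the start. For knockout regions it was 35.5% within 2 kb, 34.1% in the first 50% of the list and 23.9% without loci under 3 kb. The share of early knockout pairs past the end was 83.1% in genes of at least 3 kb, and between 66.7 and 75.3% under the other alternatives, which were chosen after seeing the data. The parental share was 3.33 to 10.3% over its alternatives, with 10.3% when the loci chosen with a position known were included. The cause of these shifts was not tested, beyond fewer regions or loci entering. Without depth, a locus with no listed region cannot be read as unbound.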

Other observations

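Several of the regions that open the lists lay at no listed gene. In the parental list these were place 1 (chr2:33141256-33141726), which overlapped the knockout region at place 111, and places 7 and 10 (chr4:49515295-49515795 and chr4:49313582-49314040) next to the chromosome 4 centromere, of which place 10 overlapped the knockout region at place 14439. In the knockout list, 4 of the 7 lay on chromosome 1, at places 2, 4, 12 and 17 (chr1:149223753-149224254, chr1:148241470-148241970, chr1:156710833-156711334 and chr1:145382698-145383198).

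Heat shock genes had knockout regions at their starts and in their bodies as well as past their ends. HSPA1A and HSPA1B, near-identical heat shock genes whose reads cannot be told apart with certainty, had regions at their starts (midpoints at -60 and -167 bp, at places 10505 and 7562). HSPA5, the endoplasmic reticulum chaperone gene, had regions at -595 bp from its start and 818 bp past its end. HSP90AA1, taken here as a locus of 59 kb, had 1 region 2227 bp past its end (place 425). Its later regions, from place 1198 on, lay inside that locus or at its start. Starts of shorter transcripts within the locus were not examined. None of these genes held a parental region.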
